A study of Mus musculus with 6 samples.

Results

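The cluster of miR-322, miR-503, miR-351 and miR-542 is a group of microRNA (miRNA) hairpins on mouse chromosome X, and 8 of its mature miRNAs were followed here in type H and type L endothelial cells (ECs) of bone marrow. The 8 members, chosen by name, were mmu-miR-322-5p, mmu-miR-322-3p, mmu-miR-503-5p, mmu-miR-503-3p, mmu-miR-351-5p, mmu-miR-542-5p, mmu-miR-542-3p and mmu-miR-450a-5p (written below without the mouse prefix mmu), out of 1881 mouse miRNAs on the array. Type H ECs were sorted as CD31hiEmcnhi cells and type L ECs as CD31loEmcnlo cells, where CD31 and endomucin (Emcn) are surface proteins of endothelium. Both cell types came from wild type C57BL/6 mice aged 1 month, with no treatment and no transgene, and the labels describe a culture in endothelial growth medium after the sort. The labels give the mice as male and the study's methods give them as female. Each of the 6 arrays, 3 per cell type, held the RNA of 1 sample, and how many animals went into a sample is not given in the sources used here. MiRNA was measured on 1-colour Agilent arrays, and all values are intensities of spots or sums of them.

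A miRNA hairpin yields up to 2 mature strands, named 5p and 3p after the arm they come from. One of them, the guide, usually enters the silencing complex and the other, the passenger, is mostly lost. The guide finds its target mRNAs mainly through its seed, bases 2 to 8 from its 5′ end. MiR-322 is the rodent counterpart of human miR-424, and miR-322 and miR-503 are known to restrain the cell cycle and to be made from a common precursor transcript. MiR-322-5p carries the seed of the miR-15/16 family, and miR-351-5p carries that of miR-125.

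The members' mature sequences from RefSeq (GRCm38.p6) follow, 5′ to 3′, with the seed in capitals, since the seeds place the members in different target families.
miR-322-5p: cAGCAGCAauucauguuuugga
miR-322-3p: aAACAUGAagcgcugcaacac
miR-503-5p: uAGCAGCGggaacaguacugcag
miR-503-3p: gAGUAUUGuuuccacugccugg
miR-351-5p: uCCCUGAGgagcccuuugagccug
miR-542-5p: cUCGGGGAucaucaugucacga
miR-542-3p: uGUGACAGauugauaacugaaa
miR-450a-5p: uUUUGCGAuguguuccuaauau
All 8 members had an entry in that table. The first 6 of the 7 seed letters were the same in miR-322-5p and miR-503-5p, and no 2 members had the same seed. On GRCm38.p6 all hairpins lay on the minus strand of chromosome X. MiR-322-5p was at chrX:53054306-53054327, miR-503-5p at chrX:53054027-53054049, miR-351-5p at chrX:53053315-53053338 and miR-542-5p at chrX:53049453-53049474. MiR-450a-5p came from both Mir450-1, at chrX:53048206-53048227, and Mir450-2, at chrX:53048339-53048360. RefSeq places Mir322, Mir503 and Mir351 within the long noncoding RNA gene C430049B03Rik, from 53053112 to 53057190, and Mir542 and the Mir450 hairpins outside it.

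The array read the members through 24 probes, each paired in full with its own mature miRNA and with no other that had a reference sequence. Probes of some members are shown, 5′ to 3′, with the bases opposite the seed in capitals, because their lengths bear on which arms could be read.
miR-322-5p, 22 bases: tccaaaacatgaatTGCTGCTg
miR-322-5p, 21 bases: tccaaaacatgaatTGCTGCT
miR-503-5p, 16 bases: ctgcagtactgttccC
miR-351-5p, 16 bases: caggctcaaagggctc
miR-542-5p, 19 bases: tcgtgacatgatgaTCCCC
miR-322-3p, 14 bases: gtgttgcagcgctT
miR-503-3p, 13 bases: ccaggcagtggaa
All probes ended at the 3′ end of their miRNA. The 4 probes of the passenger arm miR-322-3p paired with 11 to 14 bases and the 4 of miR-503-3p with 10 to 13. The probes of miR-503-5p and miR-351-5p left most or all of the seed unpaired, whereas the 22-base probe of miR-322-5p covered its miRNA from the first base to the last.

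Of the 8 members, 4 were detected by the scanner software on all 6 arrays and 3 were detected on none. The 4 detected members were miR-322-5p, miR-503-5p, miR-351-5p and miR-542-5p, all 5p arms. MiR-322-3p, miR-503-3p and miR-450a-5p were detected on 0 arrays, and miR-542-3p was detected on 2 type H arrays and on 0 type L arrays. Of the 1881 miRNAs, 231 were detected on all 6 arrays and 311 on every array of at least 1 cell type. These 311 were tested with limma, which gives each miRNA's difference between the cell types a p-value adjusted after Benjamini-Hochberg, with a threshold of 0.05. The level used was log2 of the quantile-normalized sum of the miRNA's own probes, with values under 1 set to 1. Of the 4 members tested, 3 were higher in type H ECs past the threshold and 0 were lower. Across all tested miRNAs 86.8% passed it, 44.7% as higher and 42.1% as lower in type H ECs. In either direction 3 of 4 is therefore no larger a share than the background, and 3 of 4 as higher stands against 44.7%. The median difference of the 4 members was 0.59 on the log2 scale and that of all 311 was 0.026. For the 231 miRNAs detected on all 6 arrays, as these 4 members were, the median was 0.11. In a fit of those 231 alone, 113 passed as higher and 81 as lower in type H ECs.

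Each cell type had a slide and a scan of its own, and an effect of these and of cell type cannot be told apart in any comparison here. The 10 control features that were well above background on every array were all brighter with type H, with log2 differences of 0.22 to 1.46 before normalization. Whether any of them reads RNA of the cells is not given in the sources used here. How many calls fall on each side of 0 depends on the scaling. With quantile normalization 51.5% of the called miRNAs were higher in type H ECs, with scaling on the 75th percentile (taken over miRNAs that all 6 arrays detected) 35.8%, and with no normalization 40.3%. The median difference of the 231 miRNAs detected on all 6 arrays was 0.11, -0.22 and -0.12, respectively. The defining endothelial miRNAs miR-126a-3p and miR-126a-5p were detected on 0 arrays. Of the 6 haematopoietic markers 0 were detected on any array. All 7 stromal and mural markers, among them miR-143-3p and miR-199a-5p, were tested, with 5 higher in type H ECs, 1 lower and 1 not past the threshold, and 5 were higher under each scaling. Among those 5, miR-145a-5p was detected on 3 type H but only 2 type L arrays. It met the filter through type H alone, so its call (log2 difference 1.21) is no support for a difference. The summed signal of the stromal and mural list was 898 to 1137 on type H arrays and 769 to 879 on type L arrays. That of the muscle list was 74.0 to 91.4 against 48.8 to 53.5, that of the endothelial list 2.49 to 4.74 against -0.096 to 0.67, and that of the haematopoietic list 4.75 to 7.28 against -0.68 to 0.49. All 4 sums, taken before normalization, were higher on every type H array. Those of the endothelial and haematopoietic lists come from miRNAs detected on 0 arrays and are no measure of these cells. The part of the listed cell types in the members' differences was not tested. Of the 3 muscle markers only miR-206-3p was detected, and it was higher in type H ECs with a log2 difference of 0.62 (adjusted p = 0.000104 from limma). In bulk samples of sorted cells, a larger share of cells with a miRNA and more of it per cell cannot be told apart.

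MiR-322-5p was the brightest member and was higher in type H ECs. Its own total signal was 186.8, 144.9 and 141.5 on the type H arrays and 114.4, 123.2 and 125.3 on the type L arrays. The cell types did not overlap, and the first type H array stood above the other two. All 30 spots of miR-322-5p were well above background on each of the 6 arrays. After normalization its log2 level was 7.33 ± 0.077 (SD, n = 3) in type H ECs against 6.96 ± 0.015 (SD, n = 3) for type L. The log2 difference was 0.37 (standard error 0.045, 95% interval 0.26 to 0.49, adjusted p = 0.000418 from limma), a 1.30-fold difference. Quantile normalization gave the same value, 7.37, to 2 of the type H arrays and the same value, 6.97, to 2 of the type L arrays, since the miRNA held the same rank there. By an exact two-sided permutation test p was 0.10, which is the lowest value possible with 3 arrays per cell type. Among the 311 tested miRNAs, miR-322-5p ranked 102 from the highest difference, above 67.2% of them.

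**Figure D1:**
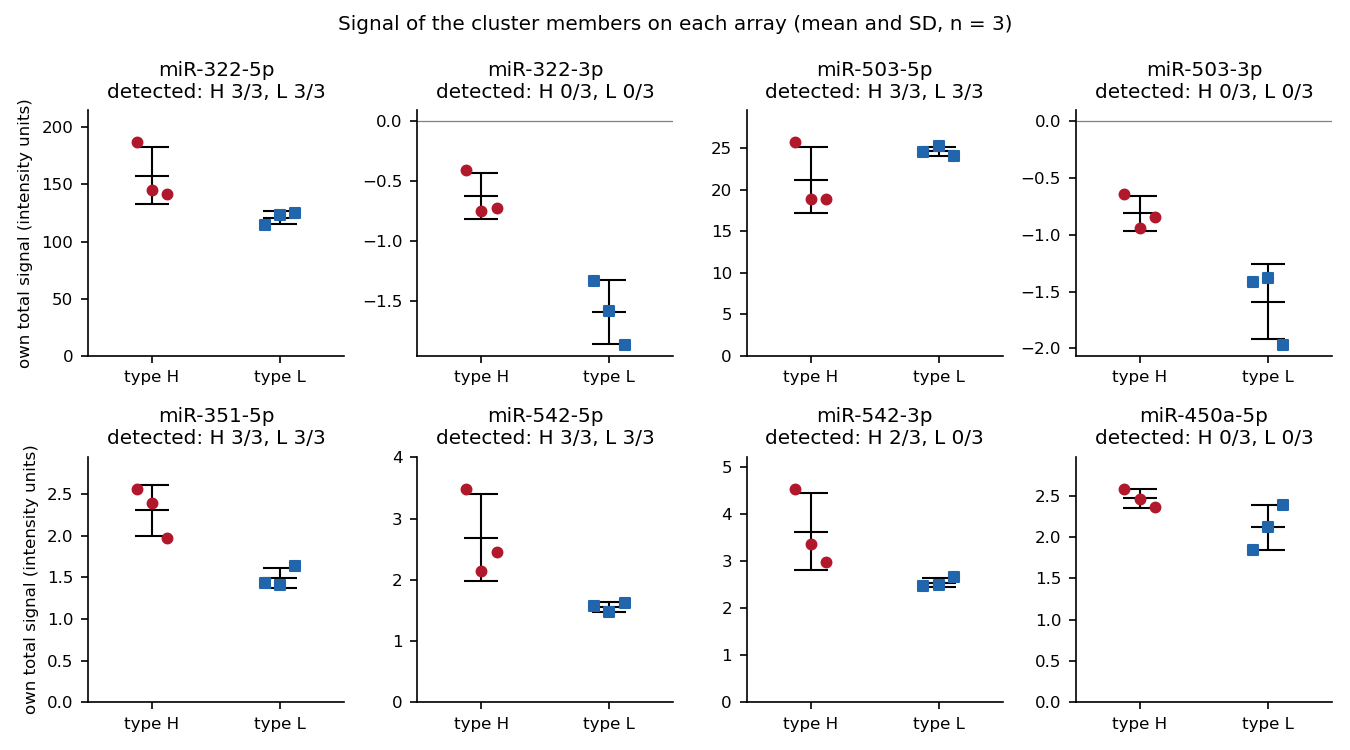
Own total signal of the 8 members (vertical axis, intensity units, a scale of its own in each panel) on the type H arrays (red circles) and type L arrays (blue squares), with mean and SD of 3 arrays. Type H arrays sit above type L arrays for miR-322-5p, miR-351-5p, both arms of miR-542, miR-322-3p and miR-503-3p. Of these, miR-322-3p and miR-503-3p lie below 0 throughout and were detected on 0 arrays. The cell types overlap for miR-503-5p and miR-450a-5p.

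MiR-503-5p, whose hairpin is next to that of miR-322 on the same strand, did not pass the threshold. Its own total was 25.7, 18.9 and 18.9 on the type H arrays and 24.6, 25.2 and 24.1 on the type L arrays. On this scale 2 type H arrays were below every type L array and 1 was above them all. After normalization the log2 difference was 0.095 (standard error 0.055, 95% interval -0.042 to 0.23, adjusted p = 0.156 from limma), with p = 0.30 in the exact two-sided permutation test. The interval allows a small difference in either direction. The sign of the value depends on the scaling. With 75th percentile scaling miR-503-5p was lower in type H ECs by a log2 difference of -0.34 (adjusted p = 0.00189 from limma), and without normalization the value was -0.24 (adjusted p = 0.113 from limma). Without type H replicate 2 it was 0.14 (adjusted p = 0.029 from limma), and past the threshold as higher. Relative to the median of the 231 miRNAs detected on all 6 arrays, miR-503-5p stood at -0.012 with quantile normalization and at -0.12 without normalization. With 75th percentile scaling this value is the same by construction, since that step applies only a factor per array.

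The difference between the 2 neighbours within an array does not depend on a factor that scales the whole array. Quantile normalization is not such a factor and does change it. With quantile normalization the log2 level of miR-322-5p minus that of miR-503-5p was 2.73, 2.77 and 2.79 on the type H arrays. On the type L arrays it was 2.44, 2.47 and 2.55. The cell types did not overlap in this measure. The mean was 2.76 ± 0.030 (SD, n = 3) in type H ECs against 2.49 ± 0.058 (SD, n = 3) for type L. The difference of 0.28 between the cell types had an exact two-sided permutation p of 0.10, the smallest this design allows. Without normalization, the measure that is free of whole-array factors, the difference between the cell types was 0.61. It was between 0.25 and 0.28 with the mean processed signal of the spots, with another background correction and in the authors' log2 table. Those values are quantile-normalized as well. MiR-322-5p itself was past the threshold under all 20 alternatives, with log2 differences from 0.27 to 0.44. Levels of the 2 miRNAs are not compared as amounts, because each probe has its own affinity.

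**Figure D2:**
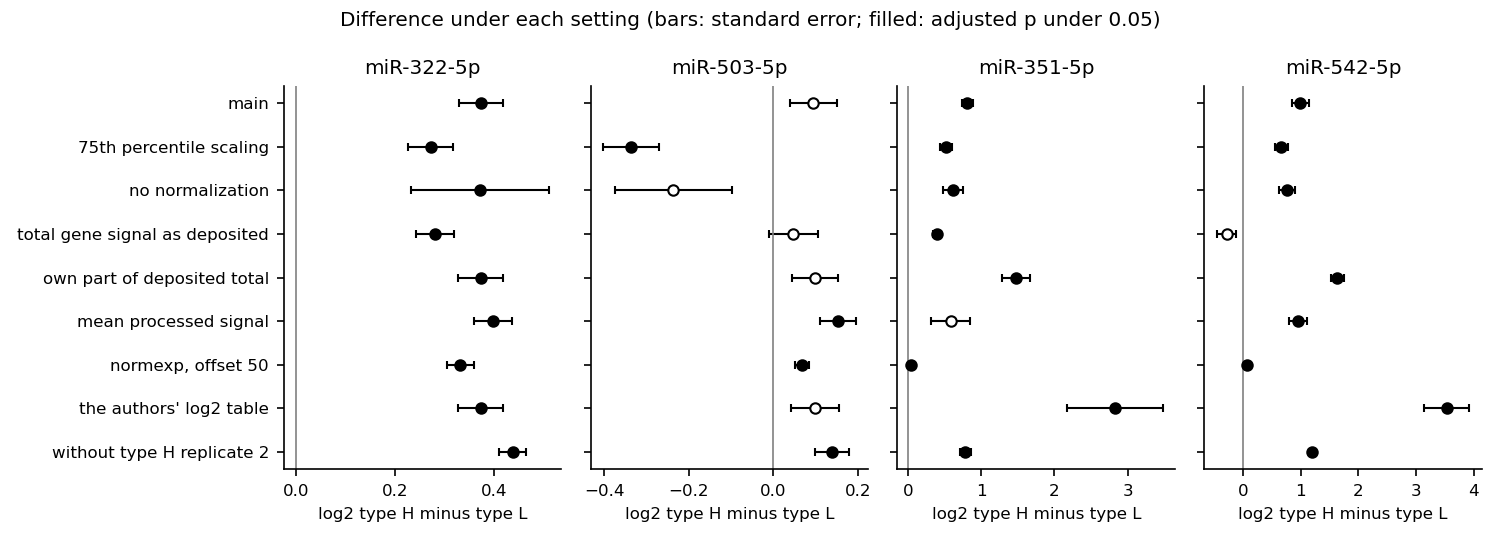
Log2 difference between type H and type L ECs (horizontal axis, a scale of its own in each panel, bars show the standard error) of the 4 tested members under the main setting and 8 alternatives, with filled points where the adjusted p from limma was under 0.05. MiR-322-5p stays between 0.27 and 0.44, miR-503-5p lies on both sides of 0, and miR-351-5p and miR-542-5p range up to 2.83 and 3.54.

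MiR-351-5p and miR-542-5p were also higher in type H ECs, at signals near the limit of detection. MiR-351-5p, which shares its seed with the miR-125 miRNAs, had own totals of 2.56, 2.39 and 1.97 on the type H arrays and 1.44, 1.41 and 1.64 on the type L arrays. All type H arrays were above all type L arrays. Its log2 difference was 0.81 (standard error 0.077, 95% interval 0.62 to 1.00, adjusted p = 0.000149 from limma), or 1.75-fold. MiR-542-5p had own totals of 3.49, 2.14 and 2.45 on the type H arrays and 1.57, 1.48 and 1.62 on the type L arrays, again without overlap. Its log2 difference was 0.99 (standard error 0.14, 95% interval 0.63 to 1.35, adjusted p = 0.000973 from limma), or 1.99-fold. For both, as for miR-322-5p, the exact two-sided permutation p was 0.10. Arrays of the cell types did not overlap for these 3 of the 4 tested members, and for 87.8% of all tested miRNAs. The 3 members detected on no array also had higher mean own totals with type H. These were -0.62 against -1.59 for miR-322-3p, -0.81 against -1.59 for miR-503-3p and 2.47 against 2.12 for miR-450a-5p. For miR-322-3p and miR-503-3p all type H arrays were above all type L arrays in own totals. In intensity units the gaps of miR-322-3p and miR-503-3p were similar in size to that of miR-351-5p. Of the dim probes of miR-351-5p, those of 13 and 14 bases had lower means with type H, and that of 15 a higher one. The part of such a shift in miR-351-5p and miR-542-5p was not tested.

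Few spots of these 2 miRNAs were well above background. For miR-351-5p it was 20 of 90 spots on the type H arrays and 4 of 90 on the type L arrays, and for miR-542-5p 8 of 90 and 1 of 90. The scanner software still marked both as detected on every array. The log2 levels of miR-542-5p on the type L arrays were 0.55, 0.60 and 0.65, while the dimmest miRNA detected on these arrays was at 0.42, 0.52 and 0.38. The size of both differences moved with the processing. For miR-351-5p the log2 difference was 0.047 with normexp background correction (adjusted p = 0.0453 from limma), 0.59 with the mean processed signal (adjusted p = 0.0854 from limma, not past the threshold) and 2.83 in the authors' log2 table (adjusted p = 0.0102 from limma). For miR-542-5p it was 0.060 with normexp (adjusted p = 0.0142 from limma) and 3.54 in the authors' table (adjusted p = 0.000598 from limma). The value was positive for both in every scaling of the own totals, and relative to the median of the 231 miRNAs it was 0.70 to 0.74 for miR-351-5p and 0.88 for miR-542-5p.

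The authors' log2 table gave a second measure of the members. There miR-322-5p was at 7.37, 7.24 and 7.37 on the type H arrays and 6.93, 6.96 and 6.96 on the type L arrays, a difference of 0.37 as in the own totals. MiR-503-5p was at 4.63, 4.48 and 4.56 against 4.48, 4.51 and 4.39, a difference of 0.099. MiR-351-5p was at -0.037, 1.51 and 1.68 on the type H arrays and -1.25, -2.72 and -1.35 on the type L arrays, and miR-542-5p at 1.82, 1.39 and 1.33 against -1.34, -2.74 and -1.98. The column medians of the table, which were also its values for miRNAs that were not detected, lay between -3.32 and -3.26. The zero point of the table at its low end is not given in the sources used here. MiR-322-3p, miR-503-3p and miR-450a-5p held the median of their column on every array.

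The probes of a member did not all show the same size of difference. The 22-base probe of miR-322-5p, with totals of 118.9, 93.0 and 89.6 on the type H arrays and 69.8, 75.7 and 75.5 on the type L arrays, had a log2 difference of 0.44 (standard error 0.019, adjusted p = 5.02e-05 from limma). The 21-base probe, which leaves the first base of the miRNA unpaired, had totals of 67.8, 51.9 and 51.9 against 44.5, 47.5 and 49.8 and a log2 difference of 0.26 (standard error 0.043, adjusted p = 0.00405 from limma). Within an array, the longer probe exceeded the shorter by 0.81, 0.84 and 0.79 on the log2 scale on the type H arrays and by 0.65, 0.67 and 0.60 on the type L arrays. The difference of 0.17 between the cell types in this probe ratio was larger than the SDs of 0.027 and 0.036, with an exact two-sided permutation p of 0.10.

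For miR-351-5p the signal came from the longest probe, and for miR-542-5p mostly from those of 18 and 19 bases. These had mean totals of 1.05 and 1.56 on type H arrays and 0.74 and 1.16 on type L arrays. Its probes of 16 and 17 bases stayed under 1, with means of -0.21 and 0.30 against -0.32 and -0.023. Of the 4 probes of miR-351-5p only that of 16 bases rose above the floor of 1 on any array, with totals of 2.48, 1.97 and 1.98 in type H ECs and 1.40, 1.25 and 1.26 in type L ECs and a log2 difference of 1.08 (adjusted p = 5.7e-05 from limma). The 19-base probe of miR-542-5p had a log2 difference of 0.78 (adjusted p = 0.000134 from limma), and its 18-base probe 0.22 (adjusted p = 0.114 from limma). Without normalization the 19-base probe was at 0.41 (adjusted p = 0.0615 from limma), not past the threshold, and the 16-base probe of miR-351-5p at 0.71 (adjusted p = 0.00486 from limma). The 2 probes of miR-503-5p gave 0.11 for 15 bases (adjusted p = 0.271 from limma) and -0.041 for 16 bases (adjusted p = 0.636 from limma). In all, 4 of the 12 probes of the tested members passed the threshold, against 75.6% of the 705 probes of all tested miRNAs. Without the probes that lay at the floor of 1 on all 6 arrays, 4 of the members' 7 probes passed, against 84.2% of 645 probes. With no normalization 2 of the members' 12 probes passed, against 62.1% of the 705.

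**Figure D3:**
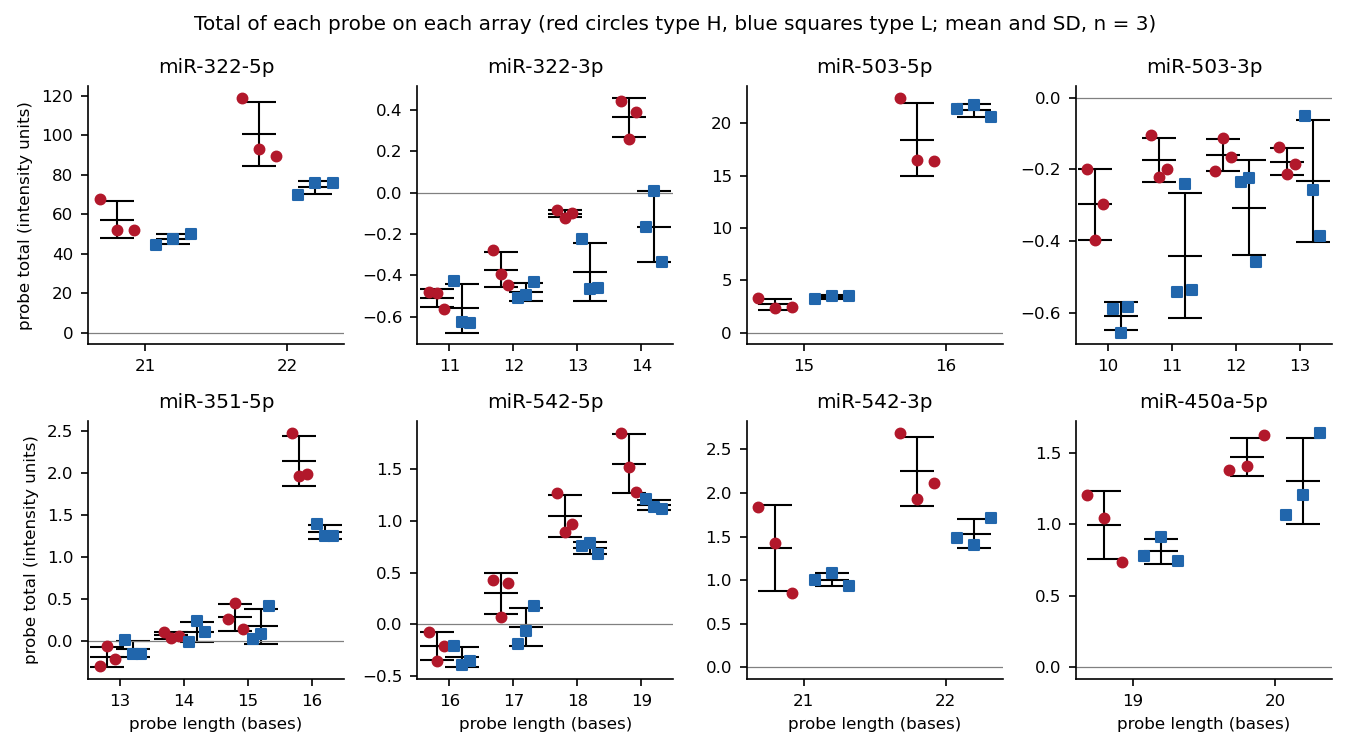
Total of each probe of the 8 members (vertical axis, intensity units, a scale of its own in each panel) by probe length in bases (horizontal axis) on type H arrays (red circles) and type L arrays (blue squares), with mean and SD of 3 arrays. The longer probe of miR-322-5p is brighter than the shorter one on every array, and the signal of miR-351-5p comes from its 16-base probe.

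Guide and passenger arms were set side by side within each hairpin. The change of the difference between arms could not be tested for any of these hairpins, because in none were both arms detected on all 6 arrays. Of miR-322, the 5p arm was detected on 6 arrays and the 3p arm on 0, with own totals of miR-322-3p from -0.75 to -0.40 on the type H arrays and from -1.86 to -1.33 on the type L arrays. Of miR-503, the 3p arm had own totals from -0.94 to -0.64 on the type H arrays and from -1.97 to -1.38 on the type L arrays. Totals below 0 mean that the spots were no brighter than the subtracted background, so these arms have no measured level here. That the passenger arms have shorter probes than miR-322-5p is given as a fact of the array, and its part in their low signal was not tested.

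Of miR-542, both arms gave signal. MiR-542-3p had own totals of 4.53, 3.36 and 2.97 on the type H arrays and 2.48, 2.49 and 2.66 on the type L arrays. The software detected it on type H replicates 1 and 3, and 1 of its 90 spots on the type H arrays and 0 of 90 on the type L arrays were well above background. These totals averaged 3.62 ± 0.81 (SD, n = 3) for type H against 2.54 ± 0.10 (SD, n = 3) for type L. On quantile-normalized log2 levels it was 1.84-fold brighter in type H ECs, from the mean over all 3 type H arrays, replicate 2 included. No type L array detected it, so this value rests on type L signals that the software did not call, and it holds for these levels only. MiR-542-3p did not meet the filter for the test. Without type H replicate 2 it did, through the type H arrays alone, with a log2 difference of 0.93 (standard error 0.073). The filter thus favoured this direction, and the call in that fit is no support for a difference. In own totals type H arrays were above type L arrays for both arms of miR-542, as they were for the undetected miR-322-3p and miR-503-3p. Whether the arms differed in size of change was not tested.

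MiR-450a-5p, whose 19- and 20-base probes read both Mir450 hairpins alike, was detected on 0 arrays. Its own totals were 2.58, 2.45 and 2.36 on the type H arrays and 1.84, 2.12 and 2.39 on the type L arrays, with 0 of 30 spots well above background on any array. The cell types overlapped on this scale. The other 5 array miRNAs of the locus, miR-351-3p, miR-450a-1-3p, miR-450a-2-3p, miR-450b-5p and miR-450b-3p, were detected on 0 arrays as well.

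The total signal per miRNA that the scanner software wrote for miR-351-5p and both arms of miR-542 was mostly another miRNA's. For miR-322-5p and miR-503-5p the deposited total was the sum of their own probes on all 6 arrays. That of miR-351-5p was 26.7, 21.7 and 20.1 on the type H arrays and 20.1, 20.7 and 21.9 on the type L arrays. Its own detected probe gave 2.48, 1.97 and 1.98 of this and 1.40, 1.25 and 1.26, and the rest, 90.1 to 94.3%, equalled the total of miR-350-3p, which stands before it in name order. The deposited total of miR-542-5p was 530, 457 and 457 on the type H arrays and 684, 694 and 686 on the type L arrays, of which 99.4 to 99.8% was the total listed before it. That chain started at miR-5126, whose own probes gave 518, 447 and 448 on the type H arrays and 674, 682 and 674 on the type L arrays. With the totals as deposited the log2 difference of miR-542-5p turned to -0.29 (standard error 0.17, adjusted p = 0.184 from limma), and that of miR-351-5p was 0.39 (adjusted p = 0.00204 from limma). With the own part of those totals, the log2 differences were 1.64 for miR-542-5p (adjusted p = 9.26e-05 from limma) and 1.48 for miR-351-5p (adjusted p = 0.000926 from limma). MiR-5126 was lower in type H ECs by a log2 difference of -0.37 (adjusted p = 0.00257 from limma), the opposite direction to the own probes of miR-542-5p.

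**Figure D4:**
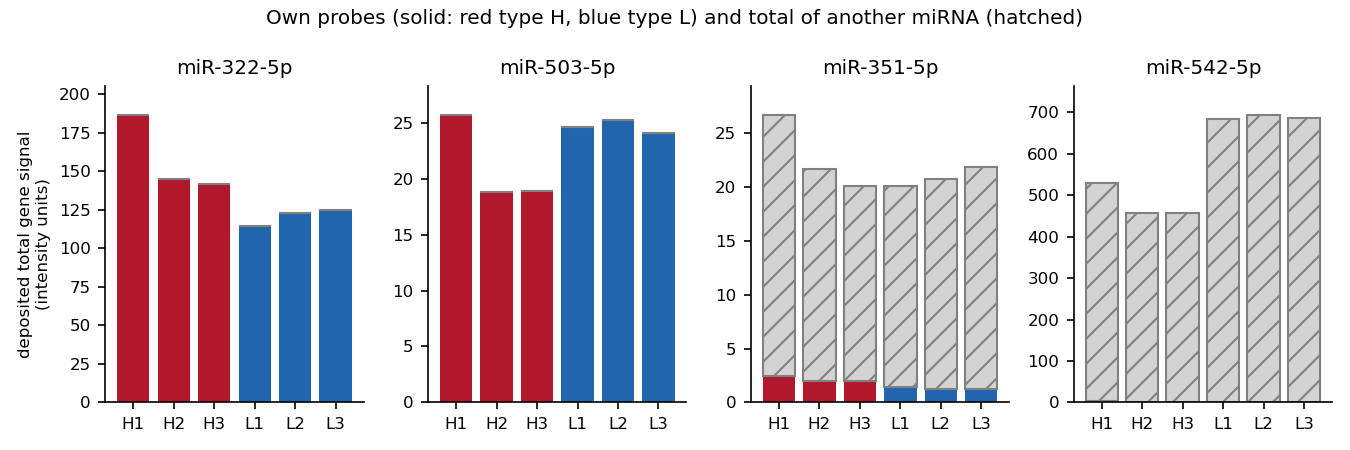
Deposited total signal (vertical axis, intensity units, a scale of its own in each panel) of the 4 tested members on type H arrays H1 to H3 and type L arrays L1 to L3, split into the part from the miRNA's own probes (solid) and the total of another miRNA (hatched). The bars of miR-322-5p and miR-503-5p are all own signal, and those of miR-542-5p are at least 99.4% another miRNA's.

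MiRNAs with a member's seed were compared with the members, since they would pair with the same target sites. Of the 1881 array miRNAs 1608 had a mature sequence in RefSeq. Besides miR-322-5p, 9 of them carried the seed AGCAGCA, of which 5 were detected on all 6 arrays and 4 on none. All 5 were higher in type H ECs past the threshold, with a median log2 difference of 0.72, and 4 of them were under both other scalings. MiR-16-5p, the exception, had the smallest difference, 0.21 (adjusted p = 0.00247 from limma), with 0.17 without normalization (adjusted p = 0.275 from limma) and 0.065 with 75th percentile scaling (adjusted p = 0.207 from limma), and miR-15a-5p and miR-15b-5p stood at 0.72 and 0.65. MiR-195a-5p at 3.57 and miR-497a-5p at 3.54 were far above miR-322-5p at 0.37. The sequences of 3 of these show that the likeness to miR-322-5p lies in the 5′ part.
miR-322-5p: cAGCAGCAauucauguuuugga
miR-497a-5p: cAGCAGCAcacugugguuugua
miR-16-5p: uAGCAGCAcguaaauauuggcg
The seed of miR-503-5p was on no other array miRNA with a sequence. The longest stretch that a miR-322-5p probe shared with any other array miRNA was 10 bases.

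The seed CCCUGAG of miR-351-5p was on 4 other array miRNAs, of which 2 were detected. Both were lower in type H ECs, miR-125a-5p by a log2 difference of -0.10 (adjusted p = 0.0204 from limma) and miR-125b-5p by -0.40 (adjusted p = 2.03e-05 from limma), whereas miR-351-5p stood at 0.81. Without normalization miR-125a-5p was at -0.096 (adjusted p = 0.528 from limma) and not past the threshold, and miR-125b-5p was lower under every scaling.
miR-351-5p: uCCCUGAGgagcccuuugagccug
miR-125b-5p: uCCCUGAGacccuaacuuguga
The seed of miR-542-5p was on 1 other array miRNA, miR-6966-5p, which was detected on 0 arrays. Whether members differ from their seed mates beyond their errors was not tested.

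Chromosome X as a whole did not move in one direction. Outside the locus 75 array miRNAs were placed on it by the array's annotation, and 13 were tested. Of these 7 were higher and 4 lower in type H ECs, against 4 higher and 8 lower with 75th percentile scaling and 3 higher and 5 lower without normalization. With quantile normalization their median log2 difference was 0.20, with a range from -2.88 for miR-672-5p to 1.55 for miR-20b-5p. The 4 tested members of the cluster, from 0.095 to 0.99, lay within the range from miR-652-5p to miR-20b-5p.

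**Figure D5:**
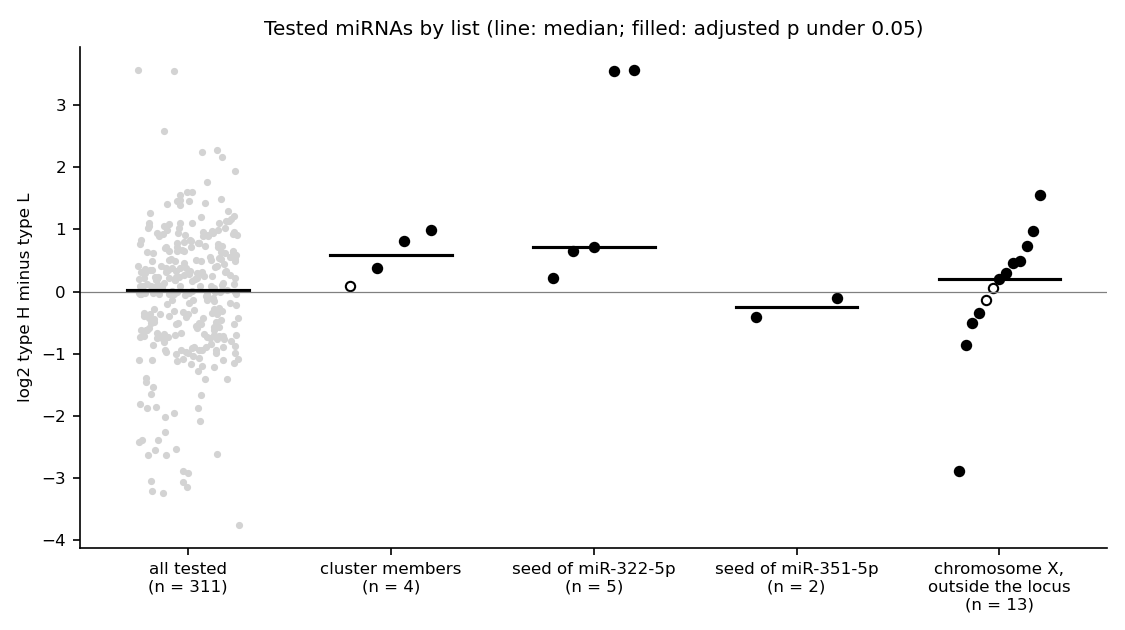
Log2 difference between type H and type L ECs (vertical axis) of all 311 tested miRNAs, the 4 tested cluster members, the other tested miRNAs with the seed of miR-322-5p (5) or miR-351-5p (2), and 13 tested miRNAs of chromosome X outside the locus, with a line at each median and filled points where the adjusted p from limma was under 0.05. The members lie between 0.095 and 0.99, and 2 miRNAs with the seed of miR-322-5p lie above 3.5.

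The miRNAs whose levels followed the mean profile of the 4 detected members most closely over the 6 arrays were miR-467b-5p (Pearson's r = 0.994), miR-185-5p (0.993), miR-199a-5p (0.993), miR-378d (0.993) and miR-15b-5p (0.991), out of 227 compared. The arrays fall into the 2 cell types, so this likeness is mostly a difference of the same direction, and the points share slide and normalization. All 5 were higher in type H ECs, with log2 differences from 0.31 for miR-199a-5p to 1.46 for miR-185-5p, but miR-378d stood at -0.029 with 75th percentile scaling. MiR-199a-5p is also on the list of stromal and mural markers, and miR-15b-5p shares the seed of miR-322-5p.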

How the data were processed

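Arrays of type H ECs (3) and type L ECs (3) were analysed. Using Feature Extraction 10.7.1.1, the authors obtained background-subtracted intensities for spots, probes and miRNAs, which they deposited as scanned, with no step between arrays. A second deposited table holds the authors' quantile-normalized log2 values. The labels describe labelled cRNA and the methods labelled small RNA. Here the totals of each miRNA's distinct probes were summed, because the deposited totals of some miRNAs hold another's signal (relative tolerance 1e-05). The sums were quantile-normalized over 1881 miRNAs, set to at least 1 and taken as log2. Following the methods, the 311 miRNAs that every array of type H, of type L or of both detected were tested with limma 3.58.1 in R 4.3.3 (lmFit, eBayes, Benjamini-Hochberg, threshold 0.05), and the same fit was run on the 705 probes of these miRNAs. The test was checked on simulated data. Replicates are those of the labels, which call them biological, and 3 arrays per cell type limit the precision. Replicate numbers did not pair the arrays. Alternatives covered signal, background correction, normalization, floor, filter, test, replicate block and each array left out. The members and lists were chosen with earlier results of these data known. The miRNAs named are the 8 members, the listed miRNAs, the miRNAs that share a member's deposited total, and the 5 most alike.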

Additional observations from a re-analysis of the deposited data

How the results depend on the processing

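MiR-322-5p kept its direction and stayed past the threshold under every alternative run. The sign of miR-503-5p turned with 75th percentile scaling (-0.34) and without normalization (-0.24), and it passed the threshold as higher with the mean processed signal (0.15), normexp (0.069) and without type H replicate 2 (0.14). MiR-542-5p turned to -0.29 with the totals as deposited, and miR-351-5p lost its call with the mean processed signal (0.59). With each array left out in turn, the log2 difference of miR-351-5p ranged from 0.74 to 0.87 and that of miR-542-5p from 0.91 to 1.19.

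The number of members past the threshold was 3. It was 1 with a floor of 4, where miR-351-5p and miR-542-5p lie at the floor on all arrays and have no value. With each array left out in turn it ranged from 3 to 5, the 5 without type H replicate 2. There miR-503-5p passed and miR-542-3p met the filter, the latter through the type H arrays alone. The number was 4 without a filter, which adds miR-542-3p. It was 5 when miRNAs at the floor on all 6 arrays were then left out, which adds miR-450a-5p (log2 difference 0.49, adjusted p = 0.0145 from limma). Of all miRNAs, 270 of 311 passed, against 413 of 1881 and 462 of 716 in those same 2 fits, which are smaller shares. With each array left out 261 to 272 passed, of 311 to 319 tested. Of the members' 12 probes 4 passed, 2 without normalization and 4 of 7 when the 60 probes at the floor on all 6 arrays were left out, where 84.2% of 645 probes passed. Leaving out features at the floor, the own part of the deposited totals and the comparisons within an array were chosen after seeing the data. MiR-322-5p minus miR-503-5p was 0.28 with quantile normalization and moved to 0.61 without normalization. With 75th percentile scaling it was 0.61 by construction, since a factor per array cancels within the array. The cause of these changes was not tested.

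Arrays with the same replicate number did not deviate together (r = -0.0055, -0.025 and 0.12 over 231 miRNAs). A fit with the replicate number as a block called 262 miRNAs and 3 members, and no member's call changed. The comparison of arms gave no value under any setting, because no hairpin of the cluster had both arms detected on all 6 arrays. The signal over background limits miR-351-5p, both arms of miR-542 and miR-450a-5p.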
